A study of Mus musculus with 16 samples.

Results

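DNA replication and the step from G1 into S phase were followed through 33 genes, picked by gene symbol from a fixed list of replication and G1/S genes. The list was chosen with earlier results of these data known. All 33 were present among the 23355 genes of the deposited expression table, and all 33 passed the filter on low values that left 15007 genes for testing. Bulk RNA had been sequenced from 16 mouse tumours that model diffuse midline glioma, a brain cancer of children whose hallmark is a lysine-to-methionine change at position 27 of the histone H3.3 (H3.3K27M). The tumours fell into 2 groups. In the 7 H3.3K27M tumours, RCAS viruses carrying PDGFA, H3.3K27M and Cre had been injected on postnatal day 3 into Nestin Tv-a; p53 fl/fl mice. In the 9 H3.3WT tumours, the virus carrying H3.3K27M was replaced by one carrying unmutated H3.3 (H3.3WT). Both groups therefore shared PDGF-A, Cre-driven loss of p53, the C57BL/6 strain and the absence of treatment, and all mice were killed at endpoint, at an age the labels do not state. RCAS is an avian virus that infects only cells bearing its receptor tv-a, here driven by the Nestin promoter of neural progenitor cells, so the host's other cells carried the floxed gene without the viruses. The libraries are numbered 1 to 16 in the table. Libraries 10 to 16 were taken as H3.3K27M and libraries 1 to 9 as H3.3WT because the table averages those sets and only their sizes match the labels. No library could be tied to a named tumour, and the design text counts 5 and 3 tumours, which differs from the labels. Every direction below rests on this assignment.

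Cells license their replication origins in G1 by loading the MCM helicase onto DNA, and in S phase a limited set of kinases and loading factors turns it into a moving fork with polymerases, a sliding clamp and chromatin assembly factors behind it. Genes for this machinery are mostly silent in resting cells and are switched on together before S phase, when cyclin-dependent kinases release E2F transcription factors from the retinoblastoma proteins. Their RNA is widely used as a sign of how many cells of a tissue are preparing for or passing through S phase. In bulk tumour RNA, fewer cells in S phase and less RNA per such cell cannot be told apart.

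E2F factors bind short GC-rich words near the start sites of such genes, so the promoters of the 33 genes were read for 4 of these words, TTTCCCGC, TTTCGCGC, TTTGCCGC and TTTGGCGC, on both strands, in a window of 300 bases from 250 before to 50 after each annotated start. RefSeq promoters (build GRCm38.p6) were matched by symbol for 28 of the 33 genes. Pole, Gins1, Gins2, Ccne2 and Mcm4 had no entry. The promoters of 6 genes are shown to let the words be seen in place, each from 170 bases before to 30 bases after the start, 5′ to 3′ on the gene's strand, with capitals marking every match. Mcm5 (chr8:75109339-75109538, + strand) and Mcm6 (chr1:128359676-128359875, - strand) are helicase subunits, Cdc6 (chr11:98907981-98908180, + strand) had a wide range between libraries, Hells (chr19:38930820-38931019, + strand) had the largest fold change of the genes with a word, Rfc3 (chr5:151651179-151651378, - strand) had the smallest, and Slbp (chr5:33652545-33652744, - strand) had no match.
Mcm5: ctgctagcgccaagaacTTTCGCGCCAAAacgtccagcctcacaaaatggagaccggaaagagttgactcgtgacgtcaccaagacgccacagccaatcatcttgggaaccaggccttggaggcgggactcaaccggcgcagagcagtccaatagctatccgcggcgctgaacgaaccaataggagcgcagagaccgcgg
Mcm6: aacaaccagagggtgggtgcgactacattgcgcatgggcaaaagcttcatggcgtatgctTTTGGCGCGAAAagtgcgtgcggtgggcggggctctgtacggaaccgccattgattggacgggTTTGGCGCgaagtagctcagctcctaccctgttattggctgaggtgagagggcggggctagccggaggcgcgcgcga
Cdc6: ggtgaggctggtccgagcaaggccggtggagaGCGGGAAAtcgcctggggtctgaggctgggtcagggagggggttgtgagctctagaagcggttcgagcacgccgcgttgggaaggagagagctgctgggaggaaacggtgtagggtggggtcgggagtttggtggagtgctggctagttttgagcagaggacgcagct
Hells: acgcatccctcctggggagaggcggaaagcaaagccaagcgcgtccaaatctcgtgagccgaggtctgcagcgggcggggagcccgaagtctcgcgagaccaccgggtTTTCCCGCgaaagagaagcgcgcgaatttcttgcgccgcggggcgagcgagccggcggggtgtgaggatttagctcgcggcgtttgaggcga
Rfc3: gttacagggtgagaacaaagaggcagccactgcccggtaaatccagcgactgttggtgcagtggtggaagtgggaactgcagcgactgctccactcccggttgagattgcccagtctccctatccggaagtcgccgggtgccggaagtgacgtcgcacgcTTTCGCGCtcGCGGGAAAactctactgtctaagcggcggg
Slbp: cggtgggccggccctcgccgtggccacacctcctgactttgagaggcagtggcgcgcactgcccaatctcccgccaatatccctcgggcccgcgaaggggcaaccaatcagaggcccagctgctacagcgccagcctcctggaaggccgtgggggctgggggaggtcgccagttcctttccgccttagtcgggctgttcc
The 12 capital bases of Mcm5, TTTCGCGCCAAA, hold a word on each strand that overlap, and they are the exact reverse complement of the 12 capital bases TTTGGCGCGAAA of Mcm6, which has a further TTTGGCGC nearer its start. In Rfc3 the words flank the start site, with TTTCGCGC beginning 10 bases before it and GCGGGAAA, the reverse complement of TTTCCCGC, beginning at the first base. In Cdc6 the match is GCGGGAAA, 138 bases before the start.

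A word was found in 13 of the 28 promoters (46.4%). The same words were found in 4.37% of 11507 genes that were tested and had an entry, and in 2.60% of all 27025 genes with an entry. Of 72 other replication and G1/S genes with an entry, 31.9% had one, and of 26 mitosis and G2/M genes 1 had one. The 13 genes were Mcm3, Mcm5, Mcm6, Mcm7, Cdc6, Cdt1, Pola1, Pold1, Rfc3, Uhrf1, Hells, Clspn and Dtl, with 19 words in all, 12 of them beginning before the start and 7 after it. With TTTCCCGC and TTTGGCGC alone, 11 of 28 promoters matched, against 3.22% of tested genes. CCAAT, the word bound by the factor NF-Y, was found in 67.9% of the 28 promoters, 80.8% of the mitosis promoters and 42.5% of tested genes. TTTGAA or TTCGAA, the words of the cell cycle homology region (CHR) common in mitotic genes, was found in 21.4% of the 28 promoters, against 80.8% of the mitosis promoters and 16.4% of tested genes. A match is only a description of the letters and no match says only that these letters are not in the window.

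**Figure D1:**
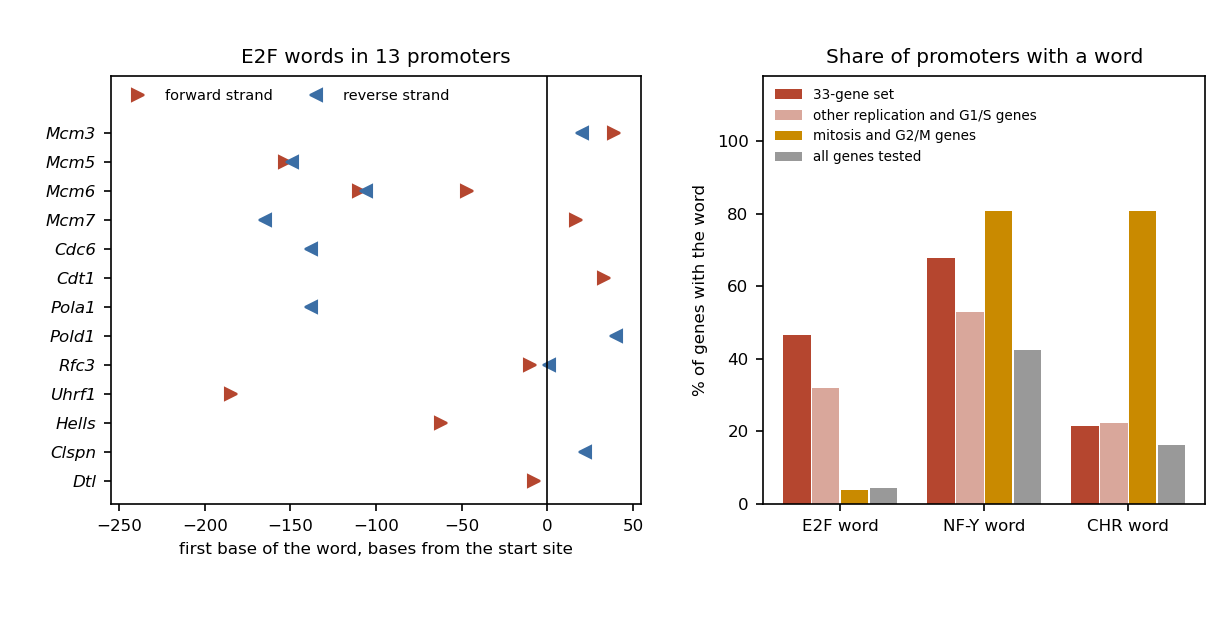
Left, position of each E2F word (first base, in bases from the start site) in the 13 promoters that hold one, with triangles pointing along the strand. Right, percentage of genes whose promoter holds an E2F word, the NF-Y word CCAAT or a CHR word: an E2F word is in 46.4% of the replication and G1/S genes against 4.37% of all tested genes, and a CHR word in 80.8% of the mitosis genes against 16.4%.

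Library depth ran from 11439144 reads in library 8, the only one under 30377560, to 41730692 reads in library 16. Values are given as normalized counts, that is, reads scaled by a size factor for each library. Even Fen1, the weakest of the 33 genes, had 19.9 normalized counts at its lowest, against 8.52 for the 3 reads that a count of 0 allows in library 8. Oligodendrocyte progenitor markers were read in every library, with 0 of 12 at 0 in any library. Their summed level was 324881 to 684786 in H3.3K27M libraries and 210089 to 579542 in H3.3WT libraries. The astrocyte, microglia and endothelial markers listed also had 0 at 0 in any library, so these values do not assign an identity to the tumour cells. Pdgfra, a progenitor marker, averaged 139883 ± 61642 normalized counts in H3.3K27M libraries and 94096 ± 50070 in H3.3WT libraries (SD, n = 7 and 9). Of the genes that make the model, Trp53 averaged 909 ± 194 in H3.3K27M libraries and 1482 ± 595 in H3.3WT libraries. The Trp53 means do not separate RNA of tumour cells from that of host cells. None of 6 genes listed for the model, Pdgfra among them, passed adjustment in limma (smallest adjusted p 0.266). Pdgfa averaged 25508 ± 14849 in H3.3K27M libraries and 26423 ± 8492 in H3.3WT libraries. The H3.3 genes H3f3a and H3f3b had log2 fold changes of -0.33 and -0.49, with adjusted p of 0.370 and 0.313 in limma, and these values do not separate the mutant from the unmutated RNA.

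The 33 genes varied over several fold between tumours of one genotype, and libraries 3 and 7, both H3.3WT, marked the ends. The ratio of the highest to the lowest library ran from 2.20 for Rfc3 to 10.9 for Rrm2, with a median of 4.43. Library 3 was the lowest of all 16 for 28 of the 33 genes, against 11.4% of all genes tested, and was among the lowest 2 for 31. Library 7 was the highest for 12 genes, against 3.96% of all genes tested, library 1, also H3.3WT, for 8 and library 16, H3.3K27M, for 5. Taking for each library the median log2 deviation of the 33 genes from their means over all libraries, library 16 stood at 0.51, library 12 at 0.39 and library 10 at -0.18 among the H3.3K27M libraries. Among the H3.3WT libraries, library 7 stood at 0.54, library 1 at 0.31, library 4 at -0.33, library 2 at -0.41 and library 3 at -1.28. The lowest library of all lay in the H3.3WT group for 32 genes, 28 of them through library 3, and the highest for 21. For most genes the H3.3WT values thus reached past the H3.3K27M values at both ends. The H3.3WT group holds 9 of the 16 libraries, and a larger group has a wider range by its size alone. The same counts over all genes were not made.

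**Figure D2:**
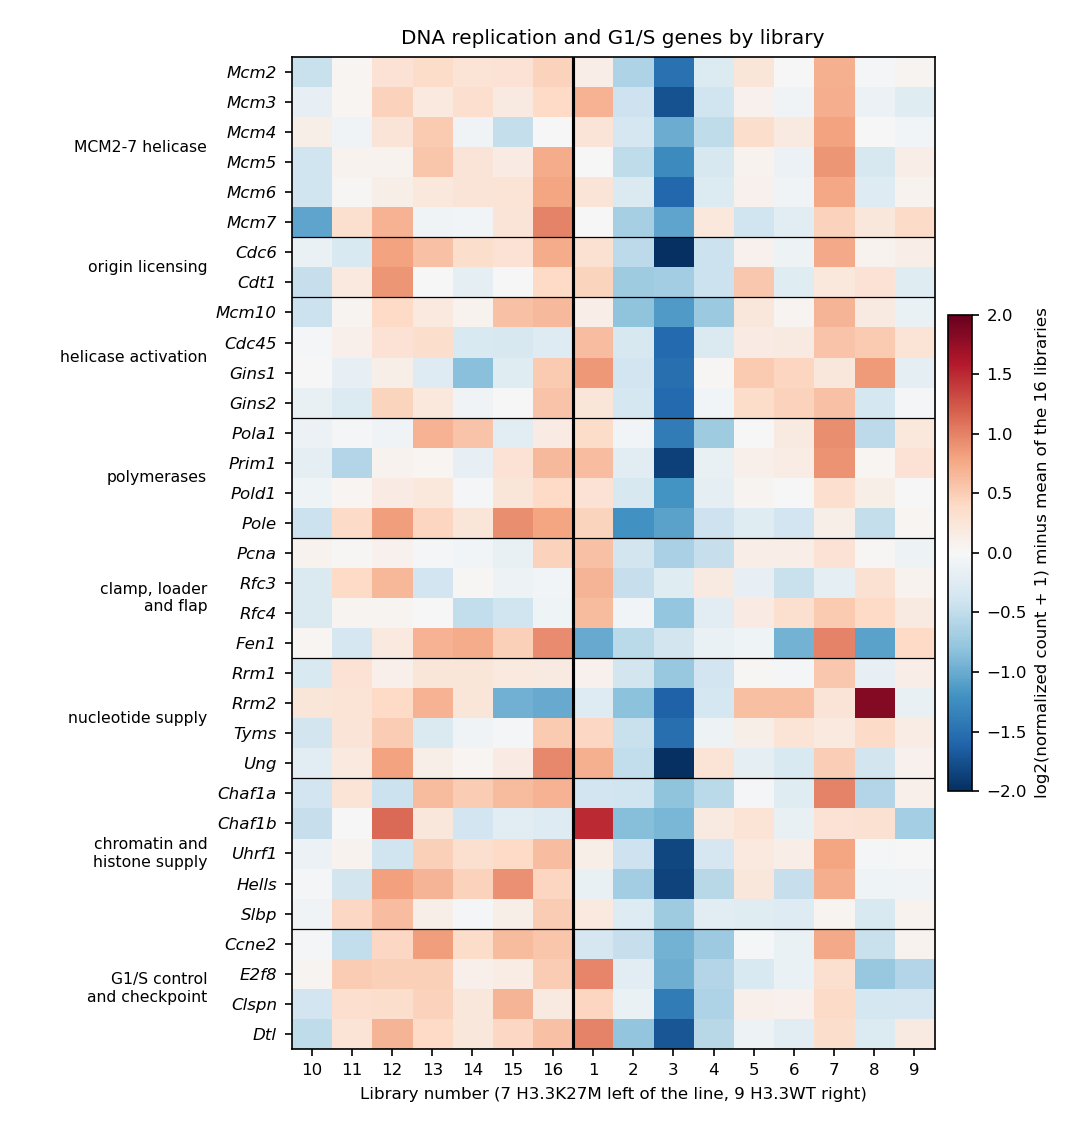
Each cell is the log2 deviation of a gene (down the page, by role) from its mean over the 16 libraries (across, with the 7 H3.3K27M libraries left of the line and the 9 H3.3WT libraries right), with deviations beyond -2 or 2 in the end colours. Library 3 is low in nearly every gene, being the lowest of 16 in 28 of 33, and libraries 7, 1 and 16 hold most of the highest values.

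The wider H3.3WT range was seen in the SD as well. The SD of the log2 values had a median over the 33 genes of 0.37 in H3.3K27M libraries and 0.60 in H3.3WT libraries, and was larger in H3.3WT for 31 of 33 genes (93.9%), against 62.2% of all genes tested. Without library 3 the H3.3WT median was 0.41, and the H3.3WT SD was larger for 27 of 33 (81.8%), against 56.1% of all genes. Library 3 held 39638684 reads. What set its values apart was not tested.

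The comparison of H3.3K27M with H3.3WT tumours asks whether the mutant histone goes with another level of these genes in tumours that share PDGF-A and p53 loss. None of the 33 genes passed the test, and neither did any other of the 15007 genes (0%, limma, adjusted p under 0.05). Most of the 33 nonetheless lay somewhat higher in H3.3K27M tumours: 29 had a positive log2 fold change (H3.3K27M minus H3.3WT on log2 of the normalized count + 1), against 50.5% of all genes tested, and the median was 0.32, against 0.00480 over all genes. The 33 genes share the same libraries and many move together, so these 29 are not independent observations. At an unadjusted p under 0.05 in limma, 5 of 33 were higher (15.2%) and 0 were lower, against 8.7% and 6.61% of all genes, so in either direction together the share of these genes, 15.2%, was close to the 15.3% of all genes tested. Those 5 were Pole, Slbp, Hells, E2f8 and Ccne2, and DESeq2 and edgeR on the recovered reads each gave 4 of them, without E2f8. DESeq2 gave none of the 33 an adjusted p under 0.05, against 0.78% of all genes it tested. The groups overlapped for all 33 genes; in all tested genes, 0.0333% had groups without overlap. At least 6 of the 7 H3.3K27M libraries lay above the H3.3WT median for 17 of the 33 genes, against 20.2% of all genes. All 7 did so for Slbp, E2f8 and Fen1, a pattern shown by 6.48% of all genes.

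Many fold changes depended on the treatment of exon length: once the trend of log2 values on exon length was taken out of each library, 16 of the 33 moved by over 1.5 times or turned sign. Among them Dtl had 0.23, Chaf1a 0.29, Mcm10 0.23, Mcm2 0.19 and Pola1 0.058, all smaller than with the trend left in. Pcna had 0.27, which was larger. A ratio is unstable for genes with little change, and the same count over all genes was not made. The median of the 33 was 0.26, and 30 were positive. In limma, 4 had an unadjusted p under 0.05, all higher, against 5.10% of all genes higher.

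The median depended on library 3. Without it, the fold change of every one of the 33 genes was smaller, their median was 0.15, and 24 were positive. At an unadjusted p under 0.05 in limma, 4 were then higher (Pole, Slbp, Hells and E2f8) and 1 lower (Rfc4), against 10.3% and 8.31% of all genes. The shift was larger without library 7, with a median of 0.43 and 11 genes at an unadjusted p under 0.05, all higher, against 11% of all genes higher and 8.34% lower. Without library 10 (H3.3K27M), 8 of the 33 were higher and 0 lower at that level, against 10.7% and 8.25% of all genes.

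**Figure D3:**
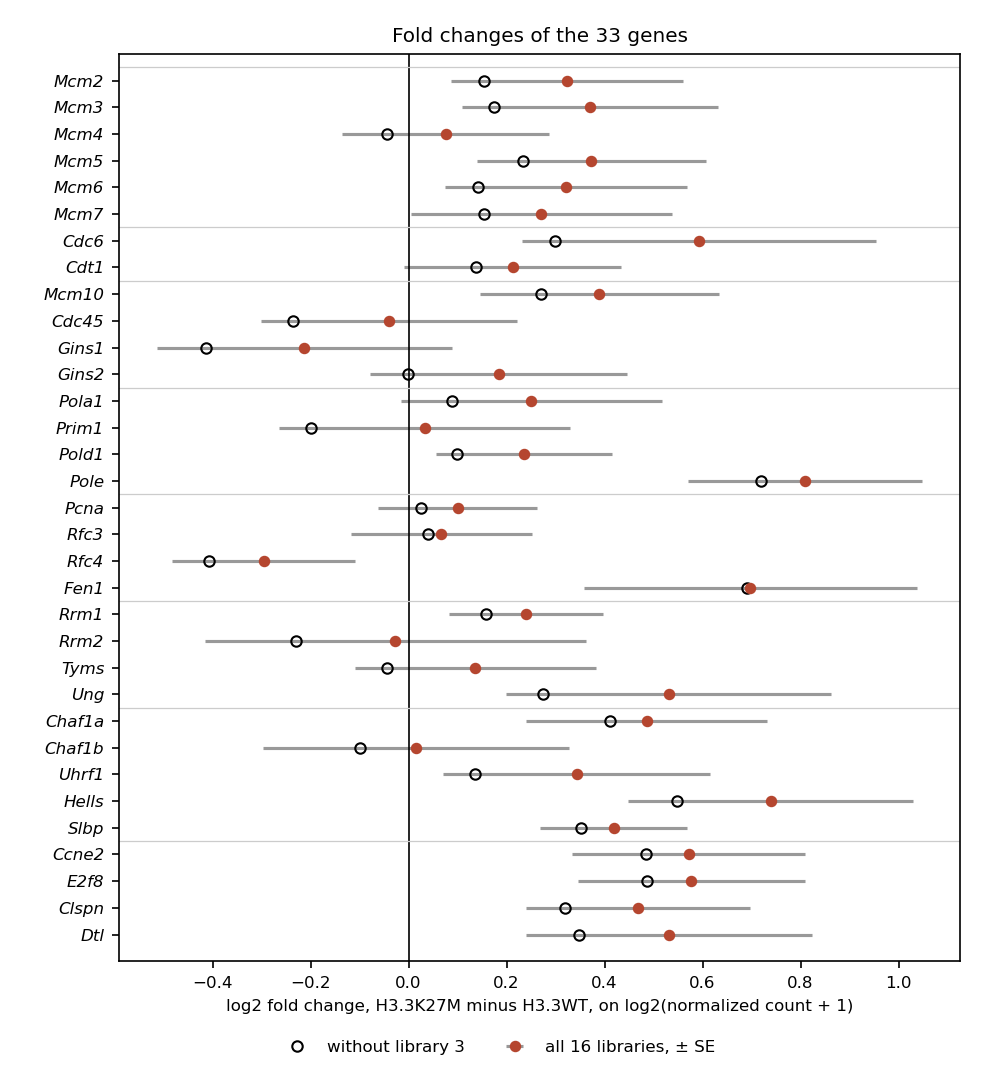
Log2 fold change of each gene, H3.3K27M minus H3.3WT, on log2 of the normalized count + 1 (red points with SE from limma, all 16 libraries; open circles without library 3), in order of role. All but Rfc4, Gins1, Cdc45 and Rrm2 lie right of 0 with all libraries, and every open circle lies left of its red point.

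The MCM2-7 helicase, the ring that unwinds DNA at the fork, had 6 of 6 subunits with positive fold changes, from 0.08 (Mcm4) to 0.37 (Mcm5), and none at an unadjusted p under 0.05. Per kilobase of exon, the subunits had like levels: the mean normalized count per kilobase lay between 682 (Mcm2) and 1090 (Mcm5) in H3.3K27M libraries and between 575 (Mcm2) and 903 (Mcm3) in H3.3WT libraries. Mcm5 had a lowest value of 2779, a median of 4115 and a highest of 6126 normalized counts in H3.3K27M libraries, and 1509, 3374 and 6756 in H3.3WT libraries. Its fold change was 0.37 ± 0.23 (SE; adjusted p = 0.441, limma). Mcm2 had 3031, 5002 and 5656 in H3.3K27M libraries and 1463, 4124 and 6716 in H3.3WT libraries. For both genes the H3.3WT libraries held the lowest value, in library 3, and the highest, in library 7. Mcm7 differed in that its lowest value, 1380, was in library 10 (H3.3K27M), close to the 1387 of library 3, and its highest, 5701, in library 16 (H3.3K27M); 12.6% of its exon length overlaps other genes, Mir25 and Mir93 among them. Without library 3 the 6 fold changes ran from -0.04 (Mcm4) to 0.23 (Mcm5).

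The origin licensing factors Cdc6 and Cdt1, which load the helicase, both had positive fold changes. Cdc6 had 414, 659 and 898 normalized counts (lowest, median and highest) in H3.3K27M libraries and 83.1, 540 and 868 in H3.3WT libraries. The 83.1 was that of library 3 and set a ratio of 10.8 between the highest and the lowest library, the second widest of the 33. Its fold change was 0.59 ± 0.36 (adjusted p = 0.430, limma), and 0.30 without library 3. Cdt1, the partner of Cdc6 that is destroyed once S phase begins, had a fold change of 0.21 ± 0.22.

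The 4 factors that turn the loaded ring into an active helicase had fold changes on both sides of 0, none of them separable from 0. Mcm10, which helps the helicase to start, had a fold change of 0.39 ± 0.24, and the GINS subunit Gins2 had 0.18 ± 0.26, while Cdc45, which joins GINS on the ring, had -0.04 ± 0.26 and the GINS subunit Gins1 had -0.21 ± 0.30. Gins1 had 224, 357 and 577 normalized counts in H3.3K27M libraries and 139, 467 and 726 in H3.3WT libraries. Only 1 of 7 H3.3K27M libraries lay above its H3.3WT median, though the lowest H3.3WT value, 139 in library 3, lay below all H3.3K27M libraries. All 4 fold changes were within 2 SE of 0, with adjusted p between 0.442 and 0.954 in limma. For Gins2, 67.3% of the exon length is covered by Gse1 on the other strand. The counting's strand setting is not given in the sources used here, so how reads from the shared stretch were counted is not known.

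Of the polymerase genes, Pole, the catalytic subunit of the leading strand polymerase epsilon, had the largest fold change of the 33. It had 1178, 2126 and 3018 normalized counts in H3.3K27M libraries and 682, 1210 and 2163 in H3.3WT libraries. Above every H3.3WT library lay 3 of the 7 H3.3K27M libraries, 3 of the 9 H3.3WT libraries lay below every H3.3K27M library, and 6 of 7 H3.3K27M libraries lay above the H3.3WT median. The means were 2259 ± 644 in H3.3K27M and 1313 ± 467 in H3.3WT libraries (SD, n = 7 and 9), and the fold change was 0.81 ± 0.24 (unadjusted p = 0.00326, adjusted p = 0.257, limma). Without library 3 the fold change was 0.72. With all libraries and the exon length trend taken out it was 0.56 (unadjusted p = 0.0358, limma). In that setting Fen1 (0.87), Ccne2 (0.63) and Hells (0.59) had larger fold changes. The other catalytic subunits stood closer to 0. Pold1, of the lagging strand polymerase delta, had 0.24 ± 0.18, Pola1, of the polymerase alpha that starts each strand, had 0.25 ± 0.27, and Prim1, the primase that makes the RNA primer, had 0.03 ± 0.30.

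Pcna, the sliding clamp, was one of the most even of the genes, with a ratio of 2.35 between its highest and lowest library. It had 2582, 2922 and 3935 normalized counts in H3.3K27M libraries and 1834, 2915 and 4316 in H3.3WT libraries, with nearly equal medians, and its fold change was 0.10 ± 0.16. The clamp loader subunits Rfc3 and Rfc4 had fold changes of opposite sign. Rfc3 had 0.07 ± 0.18, whereas Rfc4 had the most negative fold change of the 33, -0.30 ± 0.19 (adjusted p = 0.445, limma). Rfc4 had 563, 746 and 825 normalized counts in H3.3K27M libraries and 465, 895 and 1223 in H3.3WT libraries. None of the 7 H3.3K27M libraries reached its H3.3WT median, a pattern of 5.84% of all genes, and 6 of 9 H3.3WT libraries lay above every H3.3K27M library. Libraries 2, 3 and 4 did not, at 760, 465 and 676. Without library 3 the fold change was -0.41 (unadjusted p = 0.0168, limma). With all libraries and the exon length trend taken out, however, the fold change was -0.00135. Eif4a2 on the other strand overlaps 12.7% of the exon length of Rfc4. Fen1, the nuclease that trims the flaps between lagging strand fragments, had 33.6, 59.7 and 83.2 in H3.3K27M libraries and 19.9, 33.1 and 86.7 in H3.3WT libraries, with a fold change of 0.70 ± 0.34 (adjusted p = 0.336, limma). Genes on the other strand cover 84.2% of its exons, among them Tmem258, so this value is uncertain.

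In nucleotide supply, the subunits of ribonucleotide reductase, which makes the building blocks of DNA, differed in their spread. Rrm1, the large subunit, had 4986, 7012 and 7534 normalized counts in H3.3K27M libraries and 3624, 5956 and 8893 in H3.3WT libraries, and a fold change of 0.24 ± 0.16. Rrm2, the small subunit whose level follows the cell cycle, had 1187, 2831 and 3867 in H3.3K27M libraries and 777, 2146 and 8499 in H3.3WT libraries, a ratio of 10.9 between the extreme libraries. Its highest value was that of library 8, the shallowest library, and its fold change was -0.03 ± 0.39, or 0.20 without library 8. Tyms, which makes thymidylate, had 0.14 ± 0.25, and Ung, which removes uracil from DNA, had 0.53 ± 0.33 with all libraries and 0.27 without library 3; its lowest value was 690 normalized counts in H3.3K27M libraries and 163, in library 3, in H3.3WT libraries.

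The chromatin genes held 2 of the 5 smallest p-values. Hells, a remodeller that helps DNA methylation to be kept, had 751, 1339 and 1836 normalized counts in H3.3K27M libraries and 268, 870 and 1602 in H3.3WT libraries. Above every H3.3WT library lay 2 H3.3K27M libraries, and 4 H3.3WT libraries lay below every H3.3K27M library; its fold change was 0.74 ± 0.29 (unadjusted p = 0.0201, adjusted p = 0.266, limma). Slbp, which binds the stem-loop at the end of replication-dependent histone RNAs, had 1172, 1339 and 1903 in H3.3K27M libraries and 755, 1043 and 1410 in H3.3WT libraries. All 7 H3.3K27M libraries lay above its H3.3WT median and 6 of 9 H3.3WT libraries lay below all of them, with a fold change of 0.42 ± 0.15 (unadjusted p = 0.0117, adjusted p = 0.261, limma). Chaf1a, the large subunit of the histone chaperone CAF-1, had 0.49 ± 0.25, Uhrf1, which reads hemimethylated DNA behind the fork, had 0.34 ± 0.27, and Chaf1b, the middle subunit of CAF-1, had 0.02 ± 0.31. Chaf1b was set apart by single libraries, with 2328 in library 12 among the H3.3K27M libraries and 2983 in library 1 among the H3.3WT libraries, against medians of 911 in H3.3K27M and 1197 in H3.3WT libraries. Once the exon length trend was taken out, the unadjusted p in limma was 0.0525 for Slbp and 0.0549 for Hells, and 52.5% of the exons of Chaf1a overlap Ubxn6 on the other strand.

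The G1/S control genes had the highest median fold change of any role, 0.55, with all 4 between 0.47 and 0.58. E2f8, an E2F family member that represses other E2F targets in S phase, had 784, 1041 and 1071 normalized counts in H3.3K27M libraries and 380, 610 and 1478 in H3.3WT libraries. Of the 9 H3.3WT libraries, 7 lay below the lowest H3.3K27M library, and library 1 (H3.3WT) lay above all H3.3K27M libraries. Its means were 950 ± 135 in H3.3K27M and 687 ± 339 in H3.3WT libraries (SD, n = 7 and 9) and its fold change 0.58 ± 0.23 (unadjusted p = 0.0229, adjusted p = 0.272, limma). E2f8 had an unadjusted p of 0.0739 with edgeR, 0.0653 with DESeq2 and 0.0518 in limma without libraries 6 and 8. Ccne2, cyclin E2, which switches on CDK2 for S phase entry, had 387, 719 and 967 in H3.3K27M libraries and 282, 429 and 916 in H3.3WT libraries, with a fold change of 0.57 ± 0.24 (unadjusted p = 0.0273, adjusted p = 0.281, limma). Its highest H3.3WT value, in library 7, stood far above the other 8, of which the next was 570. Clspn, the adaptor of the replication checkpoint, had 0.47 ± 0.23, and Dtl, which guides Cdt1 to destruction, had 0.53 ± 0.29. Without library 3 the fold changes of the 4 genes were between 0.32 and 0.49, and Ccne2 then had an unadjusted p of 0.0510 in limma, and 0.0572 with the GC trend taken out instead. Genes on the other strand overlap 17.4% of the exon length of Ccne2 (Ints8) and 11.2% of that of E2f8 (Gm2788).

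**Figure D4:**
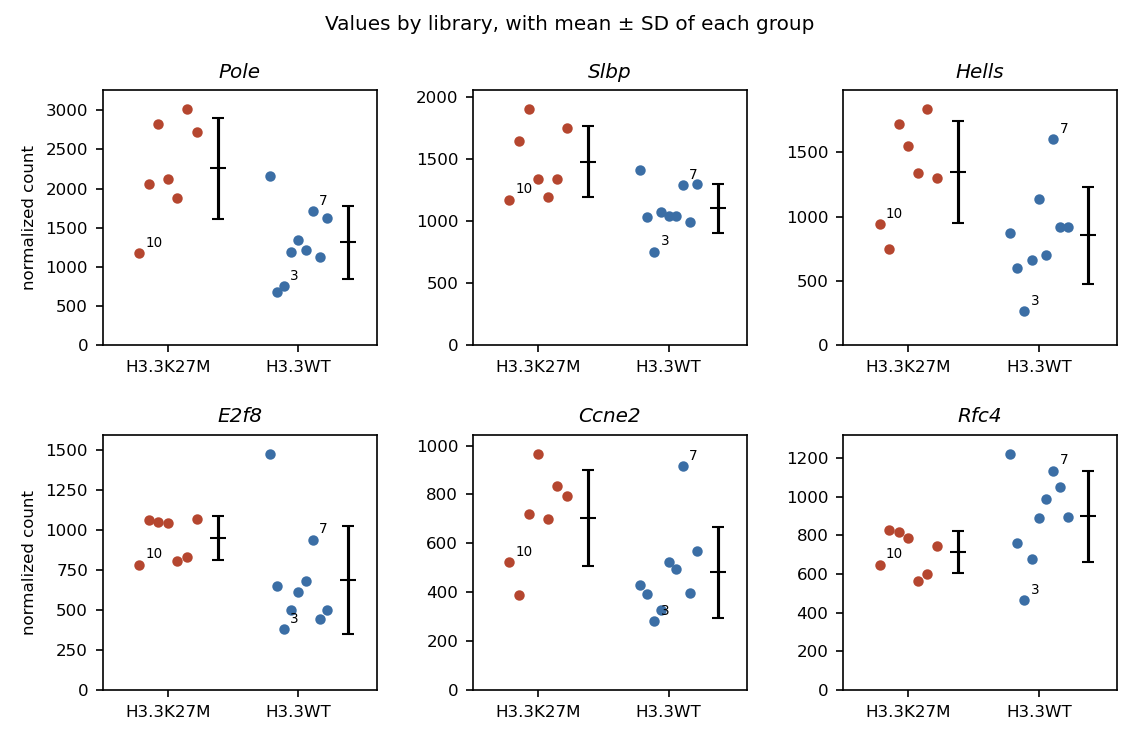
Normalized counts of 6 genes in each library (points, H3.3K27M left and H3.3WT right, with libraries 3, 7 and 10 numbered) and the group mean ± SD (n = 7 and 9). The H3.3K27M means are higher for Pole, Slbp, Hells, E2f8 and Ccne2 and lower for Rfc4, and the groups overlap in all 6.

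Genes with and without an E2F word had overlapping fold changes. The 13 genes with a word had a median log2 fold change of 0.34, between 0.07 and 0.74, and the 15 with an entry but no word had a median of 0.24, between -0.30 and 0.70. Slbp and E2f8, with 2 of the smallest p-values, were among those with no word, and Hells was among those with one.

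Other genes of the pathway were read from 6 lists holding 90 genes, all tested, to see whether the 33 stood alone. In limma, 69 of the 90 had positive fold changes, 17 were higher and 0 lower at an unadjusted p under 0.05 (18.9%, against 8.7% and 6.61% of all genes), and none passed adjustment. Their median was 0.21, and 0.12 without library 3, with 13 higher and 3 lower, against 10.3% and 8.31% of all genes in that fit. The 2 genes of each list with the smallest p were Ticrr (0.74) and Wdhd1 (0.63) of origin firing, Atad5 (0.75) and Pole2 (0.64) of the polymerase and clamp unloading group, Wee1 (0.44) and Rtel1 (0.32) of fork protection, Dck (0.55) and Cad (0.59) of nucleotide supply, Atad2 (0.76) and Supt16 (0.76) of chromatin, and E2f3 (0.44) and Skp2 (0.48) of G1/S control, all as log2 fold changes with adjusted p between 0.257 and 0.379. Atad5, which takes the clamp off DNA, averaged 1389 ± 379 normalized counts in H3.3K27M libraries and 815 ± 200 in H3.3WT libraries, and Wdhd1, which ties polymerase alpha to the helicase, averaged 1446 ± 249 in H3.3K27M libraries and 964 ± 268 in H3.3WT libraries (SD, n = 7 and 9). The list of G1/S cyclins and E2F genes had 13 of 14 positive, and the polymerase and clamp loader list 13 of 21.

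Mitosis and G2/M genes, whose products act after replication, gave 22 of 30 positive fold changes with a median of 0.19, 5 higher and 0 lower at an unadjusted p under 0.05 in limma, against 8.7% and 6.61% of all genes. Without library 3 their median was 0.09, with 2 higher and 2 lower, against 10.3% and 8.31% of all genes, so neither share lay above that of all genes. Mki67 (0.48 ± 0.21) and Top2a (0.54 ± 0.25) had positive fold changes, while Cdk1 (-0.08 ± 0.19) and Ccnb1 (0.05 ± 0.21), which drive entry into mitosis, were near 0. By library the mitosis genes were low where the 33 genes were low, with medians of -0.93 in library 3 and -0.55 in library 4. In other libraries the signs or sizes parted. The mitosis genes stood at 0.53 in library 11, -0.11 in library 12 (both H3.3K27M) and 0.29 in library 6 (H3.3WT), where the 33 genes stood at 0.06, 0.39 and -0.07.

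**Figure D5:**
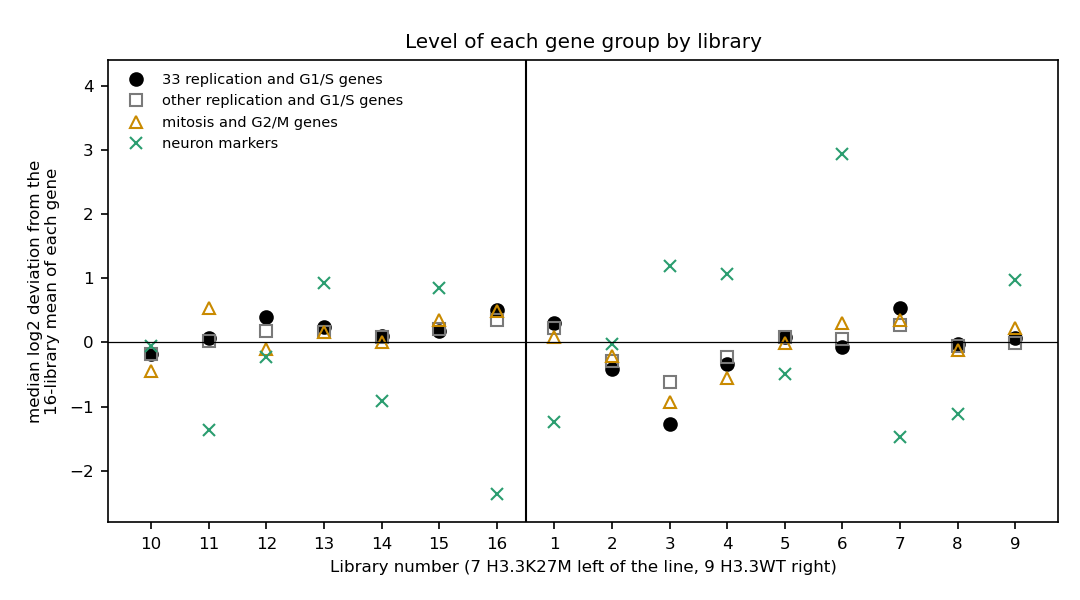
Median log2 deviation of each gene group from its genes' means over the 16 libraries, by library (7 H3.3K27M left of the line, 9 H3.3WT right). In library 3 the 33 genes stand at -1.28 and neuron markers at 1.20, whereas in library 6 the 33 genes stand at -0.07 with neuron markers at 2.94.

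Markers of normal brain and stroma differed between libraries as well. Of 14 neuron markers tested, 10 lay lower in H3.3K27M libraries, and the summed level of all 15 listed was 31189 to 50951 in H3.3K27M libraries and 34950 to 92297 in H3.3WT libraries. Of 10 myelin markers 9 lay lower, with sums of 23454 to 99929 in H3.3K27M libraries and 18182 to 232299 in H3.3WT libraries, and of 9 pericyte and fibroblast markers 8 lay lower, with sums of 5099 to 18687 in H3.3K27M libraries and 5118 to 29178 in H3.3WT libraries. Of 9 endothelial markers 8 lay lower, with sums of 6546 to 18054 in H3.3K27M libraries and 6807 to 29152 in H3.3WT libraries. All 5 red blood cell markers lay lower, with sums of 206 to 41035 in H3.3K27M libraries and 234 to 455951 in H3.3WT libraries. Astrocyte markers were evenly split, with 5 of 10 lower and 5 higher, and of 12 microglia and macrophage markers 7 lay lower and 5 higher. Of 6 lymphocyte markers tested 4 lay lower, as did 2 of 2 ependymal markers tested. Of the 12 progenitor markers, 10 lay higher. No marker of these lists was at 0 in all libraries, and none passed adjustment in limma. Library 3 had neuron markers at 1.20 and library 6, the highest, at 2.94 in median log2 deviation, with the 33 genes at -1.28 and -0.07. With the neuron marker score as a covariate, chosen after the data were seen, the median fold change of the 33 genes was 0.25 and the same 5 genes had an unadjusted p under 0.05 in limma, Pole with 0.79. The part of the other cell types in the result was not tested.

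In the authors' deposited table, none of the 33 genes had an adjusted p under 0.05, against 1.41% of 15132 genes with a value. The authors' deposited table gave Pole the smallest, 0.0530, with a log2 fold change of 0.69, and Slbp the next, 0.0898, with 0.40. The authors' deposited table had 27 positive fold changes among the 33, and 4 genes (Pole, Slbp, Hells and Ccne2) had an unadjusted p under 0.05, all higher, against 7.9% of 19833 genes higher and 7.71% lower in that table.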

How the data were processed

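RNA of 16 tumours was made into TruSeq mRNA libraries and read as single 50 bp ends, according to the labels. STAR 2.7, HTSeq and DESeq2 were used with mm10, per the submitters' processing notes; the strand setting is not given in the sources used here. The value deposited for each gene and library is a signal at or above 0, which the text calls a normalized count. No header says how they were made, but 100% of values are whole multiples, within 0.01 reads, of each library's smallest value above 0, so they are reads divided by 1 size factor per library. Per the file headers, the authors' own comparison gives each gene a log2 fold change, a Wald score, a p-value and its FDR adjustment. From 23563 lines with values (1 more was emptied), 208 repeats of 183 Ensembl IDs with equal values were removed, leaving 23355 genes.

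The test was limma 3.58.1 (R 4.3.3, two-sided) on log2(value + 1), letting the variance follow the mean and checked on simulated counts, over the 15007 genes that reached 10 normalized counts in 7 libraries or more; p-values were adjusted by Benjamini-Hochberg over all of them (threshold 0.05). This scale understates the change of low genes. Tumours are independent according to the design text, but that text counts fewer tumours than the labels. The p-values reflect how the libraries spread. If any libraries shared a tumour, these p-values would be too small. On the recovered reads, edgeR 4.0.16 (quasi-likelihood) called 0 genes and DESeq2 1.42.0 called 108, 67 higher and 41 lower. The other alternatives were pseudocounts of 0.5 and 5, other filters, TMM and upper quartile scaling, limma voom, taking out the trend of each library on exon length or on GC content (GENCODE M21), and leaving out libraries. The neuron score as a covariate was added after the data were seen.

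The 33 genes and all lists were chosen with earlier results of these data known, and so were the tests. Named genes are all 33, the 2 of each pathway list with the smallest p, 4 mitosis genes, the genes of the model and Pdgfra. Coordinates of promoters are 1-based. Genes with several annotated starts (28 genes, 31 windows) counted once if any window matched. For counting error only, a count of 0 allows 3 reads, or 8.52 normalized counts in the shallow library 8 and 2.42 in library 16.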

Additional observations from a re-analysis of the deposited data

Results flagged for a closer look

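In each group of libraries, the highest and the lowest value of each of the 33 genes were compared with the rest (66 groups examined), and 8 had 1 library far from the others. Gaps were measured on normalized counts, not on log2 values. On that scale a low library, such as library 3, is harder to flag than a high one. A chance rate of about 1 in 20 would hold only for independent groups. The 33 genes share the same libraries, so the count of 8 cannot be set against it. Library 7 (H3.3WT) was high in 3 of them, with 6756 normalized counts of Mcm5 (the next H3.3WT library had 4009), 1936 of Chaf1a (next 1047) and 916 of Ccne2 (next 570). Chaf1b had a high library in both groups, library 12 with 2328 in H3.3K27M (next 1235) and library 1 with 2983 in H3.3WT (next 1304). Rrm2 stood at 8499 in library 8 (H3.3WT), where the next H3.3WT library had 3630. Pcna stood at 3935 in library 16 (H3.3K27M), where the next H3.3K27M library had 3045. Rrm1 was low in library 10 (H3.3K27M) at 4986, where the next H3.3K27M library had 6591. What sets these libraries apart was not tested.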

How the results depend on the processing

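The counts and medians of the 33 genes depended most on libraries 3, 7 and 10. Leaving out each library in turn moved the number of all genes past adjustment between 0 and 13 (13 without library 10, 1 without library 3), the number of all genes at an unadjusted p under 0.05 between 1485 (without library 14) and 2897 (without library 7), the number of the 33 genes at that level between 4 and 11 (11 without library 7, 8 without library 10), and the median fold change between 0.15 and 0.43. In limma and the alternatives, genes past adjustment numbered 0, against 108 with DESeq2 and 2 with limma voom. Genes at an unadjusted p under 0.05 numbered 2298, against 3532 with limma voom, 1479 with the exon length trend removed and 1290 without libraries 6 and 8, and limma voom gave 8 of the 33. The genes nearest 0 changed sign. Prim1 was -0.074 with edgeR, -0.072 with DESeq2, -0.10 with limma voom, -0.041 with the GC trend removed and -0.039 with the neuron score as a covariate; Chaf1b was -0.082, -0.078, -0.027, -0.013 and -0.041 in the same order, and -0.014 with the exon length trend removed. Rrm2 was 0.13 with limma voom, 0.10 with the length trend removed and 0.32 without libraries 6 and 8. With the length trend removed Rrm1 was -0.00883, Gins1 0.085 and Cdc45 0.018; Cdc45 was 0.057 without libraries 6 and 8, and Rfc3 was -0.013 with the GC trend removed. Across libraries left out, Rrm2 ran from -0.23 to 0.20, Cdc45 from -0.24 to 0.035, Gins2 from -0.00142 to 0.27, Tyms from -0.045 to 0.21, Rfc3 from -0.038 to 0.15, Prim1 from -0.20 to 0.15, Chaf1b from -0.17 to 0.20 and Mcm4 from -0.043 to 0.18. The cause was not tested. No paired analysis was possible because the library columns carry no replicate number that ties them to the labels. Depth limits low genes in library 8 most.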
